A study of Mus musculus with 6 samples.

Results

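The miR-23/27/24 miRNAs were followed in small RNA libraries of mouse skin tissue. The mice were labelled C57 and on day 14 carried a wound labelled normal ulcer or diabetic ulcer. The members are the 5 mature 3p strands of these clusters, mmu-miR-23a-3p, mmu-miR-23b-3p, mmu-miR-24-3p, mmu-miR-27a-3p and mmu-miR-27b-3p (mmu, for mouse, is left out from here on), chosen by name and each found as 1 entry among the 649 entries of the count table. All 5 were among the 443 entries that passed the filter on low counts. The labels do not give the animals' age or sex, how diabetes or the ulcers were made, or whether each sample is a separate animal. All p-values therefore rest on the spread between these libraries alone, which may be technical. Of the 3 columns deposited per group, those numbered 3 followed from the other columns, so the results rest on libraries 1 and 2 of each group, called the normal and the diabetic libraries. Pairs of values are given in the order 1, 2.

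MicroRNAs (miRNAs) are short RNAs that guide Argonaute proteins to messenger RNAs, mainly through pairing of the seed near their 5′ end. Each hairpin precursor gives a duplex of a 5p and a 3p strand, of which usually one, the guide, is kept and the other, the passenger, is degraded. The miR-23, miR-27 and miR-24 hairpins lie together in a pair of paralogous clusters. In endothelial cells miR-23 and miR-27 are known to favour vessel sprouting, miR-27 also restrains adipocyte formation by repressing Pparg, and miR-24 is known in endothelial survival and in keratinocyte differentiation.

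The sequences show which members share a seed and how little separates the paralogues. They are the deposited sequences in DNA letters, 5′ to 3′, with the seed (bases 2 to 8) in capitals.
miR-23a-3p: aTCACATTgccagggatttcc
miR-23b-3p: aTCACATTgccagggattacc
miR-27a-3p: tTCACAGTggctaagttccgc
miR-27b-3p: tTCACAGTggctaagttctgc
miR-24-3p: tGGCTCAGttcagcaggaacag
The pair of miR-23 members shares a seed, as does the pair of miR-27 members, and no other entry of the table carries any of these seeds. Counting from 1 at the 5′ end, miR-23b-3p differs from miR-23a-3p by 1 substitution, T19A. miR-27b-3p differs from miR-27a-3p by 1 substitution, C19T. How the authors assigned reads that carry a mismatch or end before this base is not given in the sources used here, so the division of reads within each pair is uncertain.

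Places are on GRCm38, the build named in the submitters' processing notes, and come from matching each sequence to RefSeq hairpins of GRCm38.p6. The chromosome 8 cluster holds Mir23a, Mir27a and Mir24-2 on the plus strand from 84208518 to 84208921, a span of 404 bases. miR-23a-3p lies there at chr8:84208563-84208583 and miR-27a-3p at chr8:84208727-84208747, outside any protein-coding or long non-coding gene of GENCODE release M21. The chromosome 13 cluster holds Mir23b, Mir27b and Mir24-1 on the plus strand from 63300484 to 63301275, a span of 792 bases within the protein-coding gene 2010111I01Rik and opposite an intron of Fancc. miR-23b-3p lies at chr13:63300529-63300549 in an intron of 2010111I01Rik, and miR-27b-3p at chr13:63300760-63300780, which overlaps an exon of at least 1 of its transcripts. miR-24-3p has 2 places, chr8:84208875-84208896 in Mir24-2 and chr13:63301251-63301272 in Mir24-1, and its reads cannot be divided between the clusters.

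The libraries held 8949104 and 13421603 counts in normal ulcer 1 and 2, and 9309055 and 10762761 in diabetic ulcer 1 and 2. For 634 of the 638 entries counted in it, normal ulcer column 3 equalled a weighted sum of libraries 1 and 2 to within 1 read. The fitted weights, rounded here, were 0.5 for library 1 and 0.506 for library 2. At the unrounded weights each of the 5 members met it (for miR-27b-3p 411093 counts against a formula value of 411093.2). For diabetic ulcer 3, the deposited TPM of all 5 members followed 2.12 times library 2 minus 1.00 times library 1 plus 6.11, likewise rounded here. Of the 222 entries with at least 200 counts in diabetic ulcer 2, 189 (85.1%) met the unrounded formula within 0.1%. Skin markers were present: miR-203-3p, a keratinocyte miRNA, made up most of an epithelial list that took 6.99% and 1.44% of counts in normal ulcer 1 and 2 and 5.09% and 1.96% in diabetic ulcer 1 and 2. Skeletal muscle miRNAs (6 listed, led by miR-1a-3p and miR-206-3p) took 17.2%, 66.1%, 35.7% and 44.9% in the same order.

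The group labels and the authors' deposited comparison table did not match. The titles call the columns of the table's case group normal ulcer and those of its control group diabetic ulcer. The table's control mean followed diabetic ulcer 2 alone (weight 0.931; within 1% or 1 count for 646 of 647 entries). Its case mean followed normal ulcer 1, normal ulcer 2 and diabetic ulcer 1 together (weights 0.283, 0.412 and 0.329; 647 of 647 entries). Fold changes in the authors' deposited table therefore set 3 libraries, 1 of them titled diabetic ulcer, against 1 library. In the authors' deposited table they were 1.17 for miR-23a-3p, 1.27 for miR-23b-3p, 1.29 for miR-24-3p, 1.19 for miR-27a-3p and 1.38 for miR-27b-3p, each with q = 0.991. Groups below follow the titles, and every direction given between diabetic and normal ulcer rests on them.

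miR-27b-3p was far above the other members in every library, and miR-23b-3p was the lowest. Levels are CPM, the count relative to the library total after TMM scaling between libraries and brought to a common scale, in which each read stands for 1 miRNA strand whatever its length. miR-27b-3p stood at 45400 and 33220 CPM in the normal libraries, against 40050 and 29540 CPM in the diabetic ones, and ranked 4 among the 443 tested entries by its mean. Its 4 values interleaved by group, with library 1 above library 2 in each group.

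**Figure D1:**
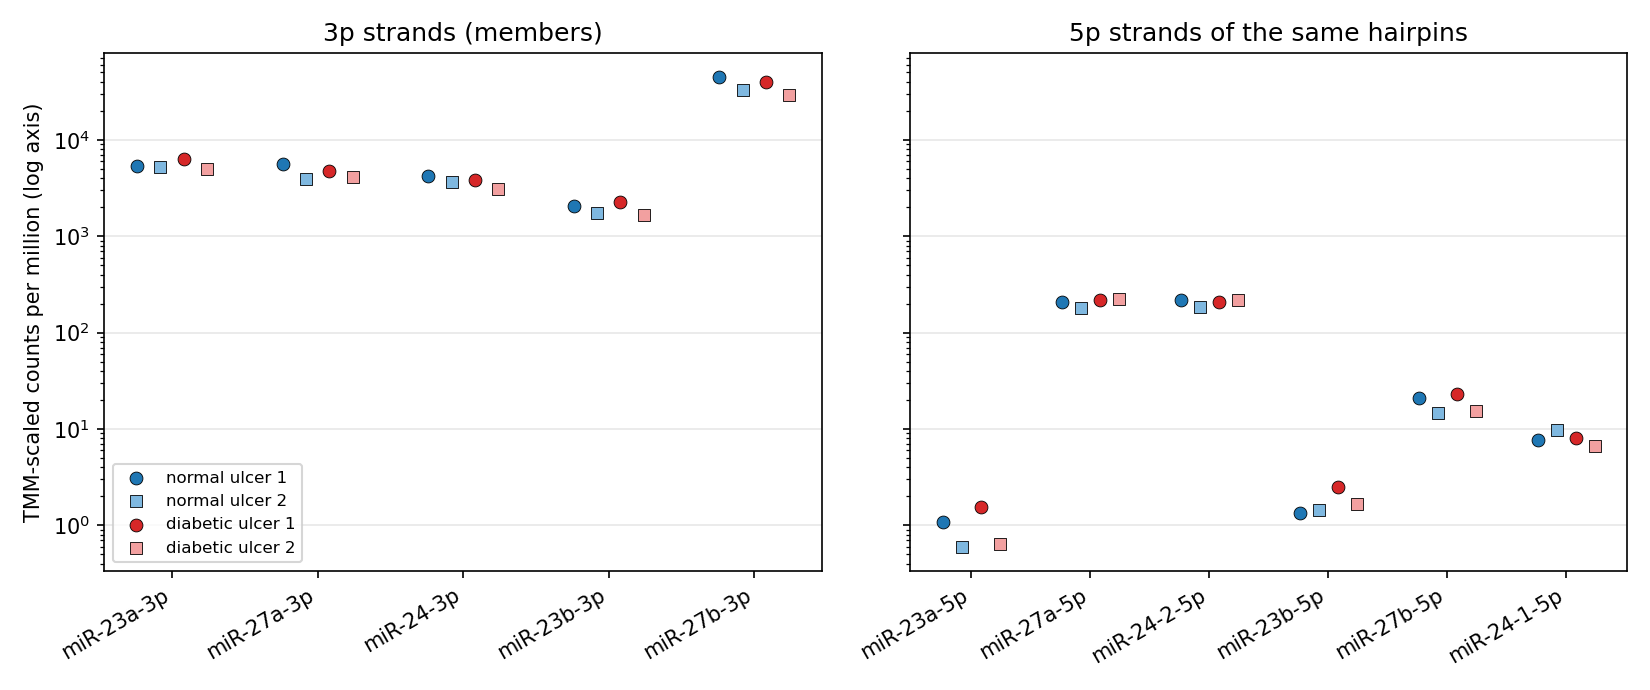
TMM-scaled CPM (log axis) of the 5 members (left) and of the 6 5p strands from the same hairpins (right), 1 point per library. miR-27b-3p lies at 29540 to 45400 CPM, above the other members, and miR-27a-5p and miR-24-2-5p stand out among the 5p strands at 181.4 to 221.3 CPM.

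miR-23a-3p stood at 5386 and 5169 CPM in the normal libraries, against 6348 and 4972 CPM in the diabetic ones. Here diabetic ulcer held both the highest and the lowest value. miR-27a-3p stood at 5577 and 3907 CPM in the normal libraries, against 4741 and 4104 CPM in the diabetic ones, both diabetic values lying between the normal ones. miR-24-3p stood at 4237 and 3621 CPM in the normal libraries, against 3860 and 3118 CPM in the diabetic ones, which overlapped. The ranges of miR-23a-3p and miR-27a-3p overlapped, and in 1 library, normal ulcer 1, miR-27a-3p was above miR-23a-3p. The ranges of miR-27a-3p and miR-24-3p overlapped too, although within each of the 4 libraries miR-24-3p was the lower of the pair (0.76 to 0.927 times by count). Every value of miR-24-3p lay below every value of miR-23a-3p. miR-23b-3p stood at 2068 and 1722 CPM in the normal libraries, against 2251 and 1643 CPM in the diabetic ones, below every value of the other members.

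Summed by seed, the miR-27 seed stood at 50980 and 37130 CPM in the normal libraries, against 44790 and 33640 CPM in the diabetic ones. The miR-23 seed stood at 7453, 6891, 8598 and 6616 CPM in that order. miR-27b-3p alone supplied 68.1% to 72.4% of the counts of the 5 members.

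Which cluster gave the more abundant strand differed from one hairpin to the next. miR-27b-3p, from chromosome 13, had 8.14 and 8.5 times the count of miR-27a-3p in normal ulcer 1 and 2, and 8.45 and 7.2 times in diabetic ulcer 1 and 2. For miR-23 the order was the opposite: miR-23b-3p had 0.384 and 0.333 times the count of miR-23a-3p in normal ulcer and 0.355 and 0.331 times in diabetic ulcer. All 4 libraries showed both orders. Within the chromosome 13 cluster, miR-27b-3p exceeded miR-23b-3p 22.0 and 19.3 times in normal ulcer and 17.8 and 18.0 times in diabetic ulcer. Within the chromosome 8 cluster, miR-27a-3p stood at 1.04 and 0.756 times miR-23a-3p in normal ulcer and 0.747 and 0.825 times in diabetic ulcer. Such ratios (0.5 added to each count) do not depend on scaling between libraries.

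The 5p strands ranked the clusters the other way for miR-27 and, on few counts, for miR-23. The 5p sequences below show how far these strands differ between paralogues, so that, unlike miR-24-3p, the 5p strands of miR-24 can be told apart by sequence (seed in capitals).
miR-27a-5p: aGGGCTTAgctgcttgtgagca
miR-27b-5p: aGAGCTTAgctgattggtgaac
miR-24-2-5p: gTGCCTACtgagctgaaacagt
miR-24-1-5p: gTGCCTACtgagctgatatcagt
miR-27a-5p stood at 208.7 and 181.4 CPM in the normal libraries, against 219.6 and 221.3 CPM in the diabetic ones. miR-27b-5p stood at 20.83 and 14.56 CPM in the normal libraries, against 23.04 and 15.51 CPM in the diabetic ones. The count of miR-27a-5p was thus 9.52 to 14.2 times that of miR-27b-5p over the 4 libraries, although its 3p partner was the rarer one. miR-24-2-5p, of chromosome 8, stood at 218.4 and 182.7 CPM in the normal libraries, against 206.3 and 220.2 CPM in the diabetic ones. miR-24-1-5p, of chromosome 13, had 7.727, 9.784, 8.041 and 6.7 CPM. The chromosome 8 strand of miR-24 was therefore 18.6 to 32.6 times as abundant by count in these 4 libraries. The miR-23 passengers were close to the detection limit, with 13, 5, 17 and 7 counts for miR-23a-5p and 16, 12, 28 and 18 counts for miR-23b-5p. On these few counts miR-23b-5p stood at 1.22 and 2.27 times miR-23a-5p in normal ulcer and 1.63 and 2.47 times in diabetic ulcer. This order was also opposite to that of the 3p strands.

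**Figure D2:**
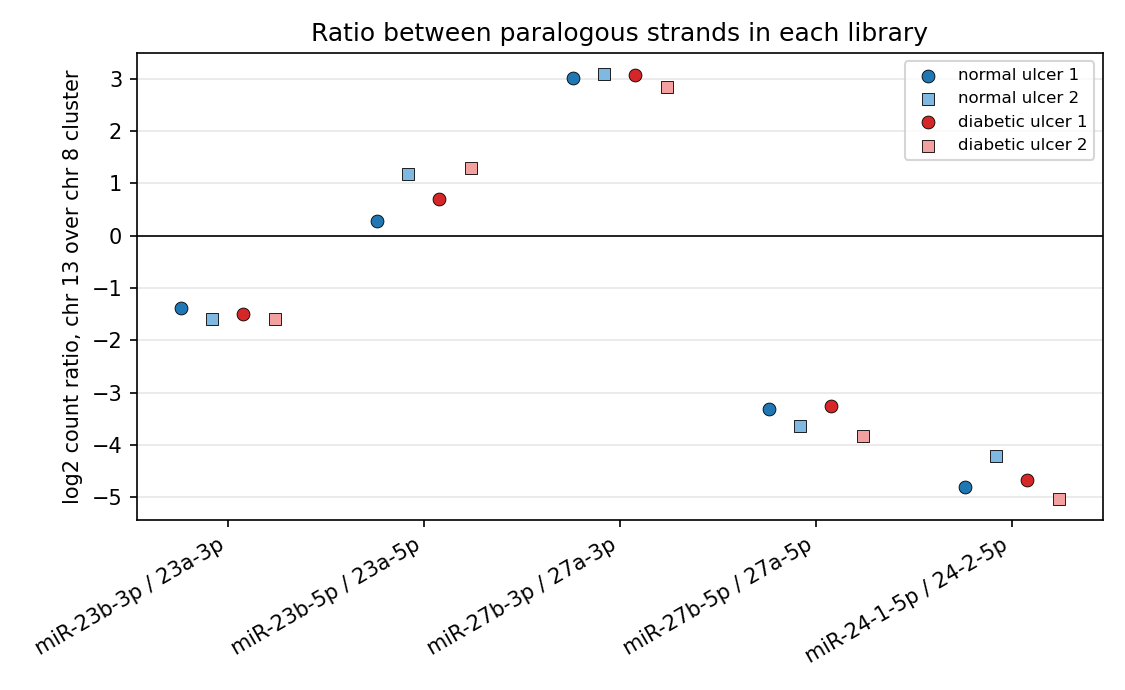
Log2 count ratio of the chromosome 13 strand over its chromosome 8 paralogue for 5 strand pairs, 1 point per library and a line at equal counts. The 3p strands of miR-27 lie at 2.85 to 3.09 and those of miR-23 at -1.60 to -1.38, while the 5p strands of miR-27 and miR-24 lie below the line. The 5p strands of miR-23, with at most 28 counts, lie above it at 0.29 to 1.30.

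Strand balance varied by orders of magnitude among the hairpins. The precursors of miR-27a and miR-27b are shown because their strands ranked in opposite order; they are RefSeq GRCm38.p6 hairpins on the plus strand, at chr8:84208672-84208758 and chr13:63300712-63300784, with the 5p and 3p strands in capitals.
Mir27a: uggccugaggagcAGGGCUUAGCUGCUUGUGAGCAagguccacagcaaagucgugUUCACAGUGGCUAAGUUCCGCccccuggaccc
Mir27b: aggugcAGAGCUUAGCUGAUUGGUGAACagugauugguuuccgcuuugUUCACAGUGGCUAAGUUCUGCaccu
For Mir27b the 3p strand had 2180 and 2270 times the count of the 5p strand in normal ulcer and 1740 and 1900 times in diabetic ulcer. For Mir27a the ratio was only 26.7 and 21.5 in normal ulcer and 21.6 and 18.5 in diabetic ulcer. miR-24-3p, which sums both hairpins, had 14.2 to 19.8 times the count of miR-24-2-5p and 368 to 545 times that of miR-24-1-5p. miR-23a-3p had 4020 to 7880 times the count of its 5p strand, and miR-23b-3p 874 to 1490 times.

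**Figure D3:**
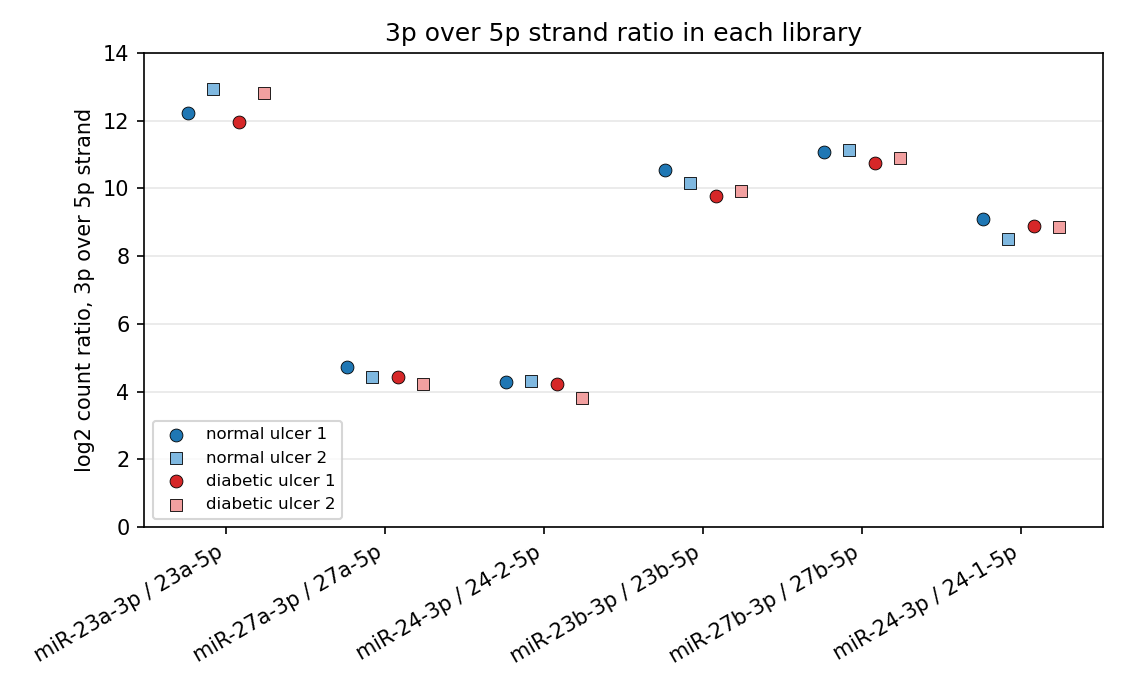
Log2 count ratio of the 3p over the 5p strand for the 6 hairpins, 1 point per library. Mir27a and Mir24-2 lie at 3.82 to 4.74 and the other hairpins at 8.52 to 12.94; miR-24-3p enters the ratios of both miR-24 hairpins.

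On the opposite strand, the miR-3074 hairpins overlap the miR-24 hairpins, and miR-3074-5p overlaps miR-24-3p by 20 bases on either chromosome. miR-3074-5p stood at 135.1 and 109.4 CPM in the normal libraries, against 104.1 and 74.26 CPM in the diabetic ones, so that both diabetic values lay below both normal ones, an order seen in 12.0% of all tested entries. Its log2 difference, diabetic minus normal, was -0.46 ± 0.28 (SE; adjusted p = 0.999, edgeR) and did not pass. The other opposite-strand entries, miR-3074-1-3p and miR-3074-2-3p, had at most 25 counts and log2 differences of -0.24 and -0.69. Of these, miR-3074-2-3p did not overlap between the groups, and neither passed. miR-24-3p was 31.3 and 33.1 times as abundant by count as miR-3074-5p in normal ulcer, and 37.1 and 42.0 times in diabetic ulcer. This ratio, not among the 14 tested below, was higher in diabetic ulcer without overlap. Of ratios between all pairs of tested entries, 22.1% did not overlap, in either direction. Whether the authors' counting used strand is not given in the sources used here.

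The labels set diabetic against normal ulcer skin, and none of the 5 members did so beyond the spread between libraries. With edgeR's quasi-likelihood test over the 4 libraries, 0 of 5 members passed an adjusted p of 0.05, where 0.0% of 443 tested entries passed. At an unadjusted p under 0.05 the counts were 0 of 5 members and 4 of 443 entries (0.903%). The log2 differences, diabetic minus normal, were 0.10 ± 0.27 (SE) for miR-23a-3p, 0.04 ± 0.29 for miR-23b-3p, -0.17 ± 0.27 for miR-24-3p, -0.10 ± 0.30 for miR-27a-3p and -0.18 ± 0.34 for miR-27b-3p. Each had adjusted p = 0.999 in edgeR, and the median over all tested entries was -0.02. In bulk tissue, fewer cells of a type and less RNA per cell cannot be told apart.

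In group means, miR-27b-3p averaged 39310 ± 8610 CPM over the normal libraries and 34800 ± 7430 CPM over the diabetic ones (SD, n = 2). miR-23a-3p stood at 5278 ± 153 and 5660 ± 973 CPM, and miR-24-3p at 3929 ± 436 and 3489 ± 525 CPM (SD, n = 2). The groups overlapped for 5 of 5 members, whereas they did not overlap for 21.0% of all tested entries. The direction of every member turned on single libraries. Without diabetic ulcer 2 all 5 log2 differences were positive, 0.04 to 0.33, and without diabetic ulcer 1 all 5 were negative, -0.40 to -0.08. Without normal ulcer 1, miR-27a-3p and miR-27b-3p took positive values of 0.17 and 0.06. With scaling to library totals, which moved the median of all entries to 0.17, miR-27b-3p stood at -0.24 and miR-23a-3p at 0.11 relative to that median. miR-27a-3p changed sign on deposited TPM (0.017), and the other members kept their sign under the scalings tried.

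**Figure D4:**
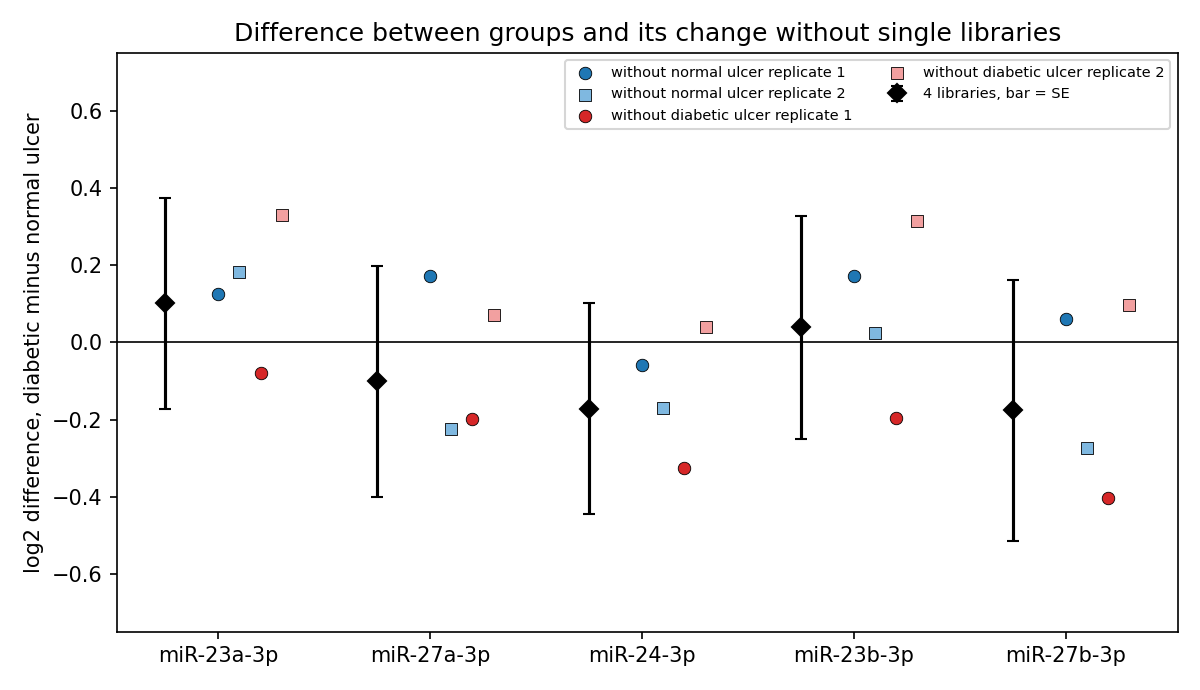
Log2 difference, diabetic minus normal ulcer, of the 5 members: diamonds with SE bars from the fit over 4 libraries, and coloured points from fits that leave out 1 library each. The diamonds lie between -0.18 and 0.10, and points on both sides of 0 occur for each member.

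Among the strands from the same hairpins, 0 of 6 5p strands passed edgeR's test. miR-27a-5p had both diabetic values above both normal ones, with means of 195.0 ± 19.3 and 220.5 ± 1.18 CPM (SD, n = 2). The log2 difference was 0.18 ± 0.23 (SE; adjusted p = 0.999, edgeR). miR-23b-5p also lay higher in both diabetic libraries, on at most 28 counts. Such an order upward was seen in 9.03% of all tested entries.

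The ratios within libraries asked whether members shifted against each other between the groups. Of 14 ratios, 6 did not overlap between the groups, where 22.1% of ratios between all pairs of tested entries did not, in either direction. As written, with miR-24 or miR-27 over miR-23 and 3p over 5p, all 6 were lower in diabetic ulcer. Turning a ratio over reverses its direction. The 14 ratios share strands and are not independent. The ratio of miR-24-3p to miR-23a-3p was 0.787 and 0.7 in normal ulcer and 0.608 and 0.627 in diabetic ulcer. On the log2 scale the difference, diabetic minus normal, was -0.27, with within-group SDs of 0.12 in normal and 0.03 in diabetic ulcer. The ratio of miR-27b-3p to miR-23b-3p and that of miR-24-3p to miR-23b-3p each differed by -0.20 on the same scale. For 3p over 5p, the log2 differences of the ratios that did not overlap were -0.29 for Mir27b, -0.27 for miR-24-3p over miR-24-2-5p and -0.51 for Mir23b, the last on few 5p counts. Without diabetic ulcer 2 the log2 difference of miR-24-3p over miR-24-2-5p was -0.067, and without diabetic ulcer 1 it was -0.47. That of miR-27b-3p over miR-23b-3p was -0.109 without normal ulcer 1. Each of these 6 had p = 0.333 in a two-sided exact permutation test, the smallest p that 2 against 2 libraries allow, and adjusted p = 0.777 over the 14 ratios. The design cannot reach a p under 0.05 here. The ratio of miR-27b-3p to miR-27a-3p overlapped between the groups (log2 difference -0.09, exact permutation p = 0.667), as did that of miR-23b-3p to miR-23a-3p (-0.06, p = 0.667).

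The share of all counts taken by the members differed more between libraries than between groups, and muscle miRNAs differed with it. The 5 members together took 8.34% (95% Wilson interval 8.32 to 8.356, which covers counting error only) and 2.97% (2.966 to 2.984) of counts in the normal libraries. In the diabetic libraries they took 6.81% (6.791 to 6.823) and 4.39% (4.379 to 4.403). The order of these shares was the reverse of the order of the muscle list's shares given above. Members and muscle list are shares of the same total, so a larger muscle share leaves less for all other entries. Among the counts outside the muscle list, the members took 10.1%, 8.79%, 10.6% and 7.98%. The highest share was then 1.33 times the lowest, against 2.8 times before. For miR-27b-3p this spread was 1.36 times outside the muscle list (5.43% to 7.4%) and 2.91 times over all counts (2.07% to 6.04%). Muscle miRNAs were present in every library, with miR-1a-3p at 123400 CPM in normal ulcer 1, where it was lowest. miR-133a-3p, miR-133b-3p and miR-206-3p of the same list had at least 4700 counts in each library. The remaining members of the list were at or near 0 in part of the libraries: normal ulcer 1 and 2 held 0 and 505 counts of miR-499-5p, and diabetic ulcer 1 and 2 held 1 and 19. miR-208b-3p had 35 counts in normal ulcer 2 and 0 in each of the other libraries.

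**Figure D5:**
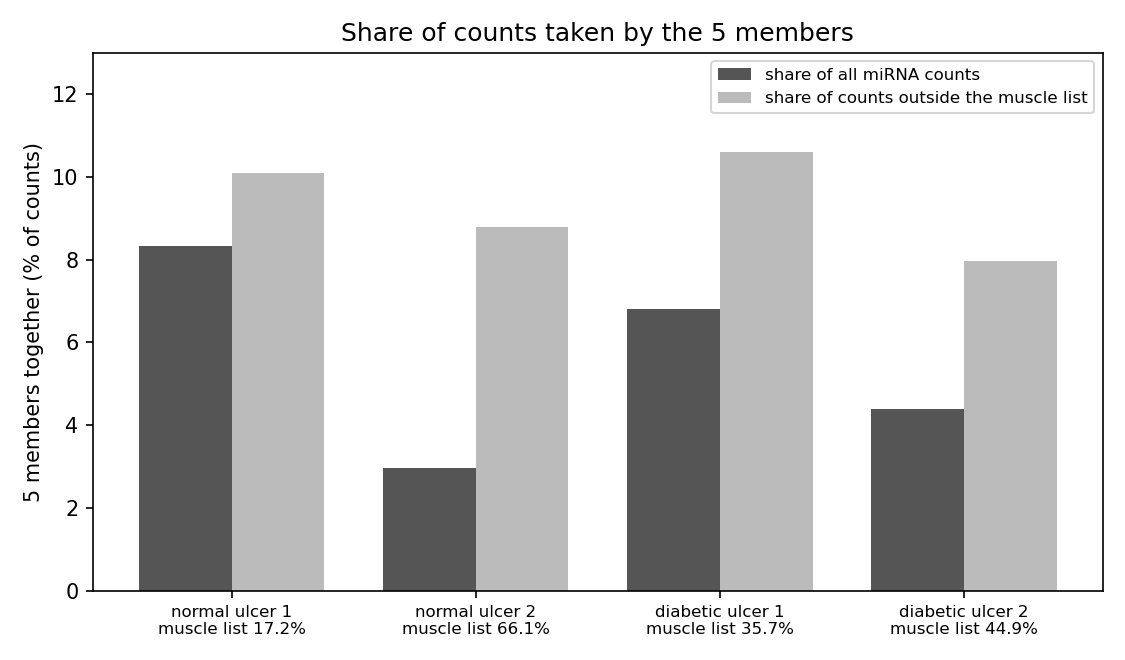
Share of counts taken by the 5 members together in each library, over all miRNA counts (dark bars) and over counts outside the muscle list (light bars), with the muscle list's own share under each library. The dark bars range from 2.97% to 8.34% and the light bars from 7.98% to 10.6%.

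After TMM scaling, all 5 members were still higher in library 1 than in library 2 of both groups, as were 33.4% of all tested entries. The fold ranged from 1.04 for miR-23a-3p to 1.43 for miR-27a-3p in normal ulcer, and from 1.16 for miR-27a-3p to 1.37 for miR-23b-3p in diabetic ulcer. Other marker lists also differed between libraries 1 and 2. The epithelial list (7 tested) summed to 52550 and 22990 CPM in the normal libraries, against 42820 and 19320 CPM in the diabetic ones. The fibroblast list (3 tested) summed to 17350, 11110, 15590 and 10840 CPM in that order, led by miR-199a-3p, an entry merged with miR-199b-3p, and miR-199a-5p. These lists, like the members, were higher in library 1 of each group. The endothelial strands miR-126a-3p and miR-126a-5p summed to 11780, 15830, 9977 and 18280 CPM and were higher in library 2. The leukocyte list (5 tested), led by miR-223-3p and miR-142a-3p, summed to 739.3, 891.1, 623.6 and 1398 CPM. The erythroid list (3 tested), led by the merged entry of miR-486a-5p and miR-486b-5p and by miR-451a, summed to 592.3, 1586, 926.1 and 1044 CPM. Both sums were higher in library 2 of each group. Within the leukocyte list, miR-142a-5p (74.7 and 53.8 CPM) and miR-342-3p (33.2 and 27.7 CPM) were higher in library 1 of normal ulcer. The other leukocyte entries were higher in library 2 of both groups. The smooth muscle and pericyte pair, miR-143-3p and miR-145a-5p, summed to 33310, 31000, 27950 and 39590 CPM, with no common order. The part of these cell type markers in the members' levels was not tested.

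Of miRNAs known for roles in vessel growth, 0 of 28 tested entries passed edgeR's test, and the groups overlapped for 25 of them, as for 350 of all 443 entries. The fitted log2 difference was negative for 20 and positive for 8, where it was negative for 232 and positive for 211 of all entries. The median was -0.10 against -0.02 over all entries. Its most abundant entries were miR-26a-5p and let-7f-5p. miR-26a-5p, which is known to restrain vessel growth in diabetic wounds of mice, stood at 93350 and 87430 CPM in the normal libraries, against 74730 and 64210 CPM in the diabetic ones. Its log2 difference was -0.38 ± 0.30 (SE; adjusted p = 0.999, edgeR). let-7f-5p stood at 30440 and 28130 CPM in the normal libraries, against 26430 and 29250 CPM in the diabetic ones, which overlapped.

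The entries whose profile over the 4 libraries was most like that of each member were found by the root mean square difference of centred log2 CPM, among 140 other entries with a mean of at least 100 CPM. With 4 libraries this is a description only. For miR-27b-3p they were let-7b-5p (0.058), miR-125b-2-3p (0.06) and miR-20a-5p (0.064), where the median entry lay at 0.285. For miR-27a-3p they were miR-411-5p (0.006), miR-125b-2-3p (0.057) and let-7c-5p (0.09). miR-24-3p was closest to miR-152-3p (0.018), miR-29a-3p (0.039) and miR-145a-5p (0.044). miR-23a-3p was closest to miR-181b-5p (0.06), miR-93-5p (0.064) and miR-374b-5p (0.068), and miR-23b-3p to miR-17-5p (0.048), miR-214-3p (0.068) and miR-181b-5p (0.073). Among the members themselves, the distance was 0.087 between miR-23a-3p and miR-23b-3p and 0.097 between miR-27a-3p and miR-27b-3p, which share a seed but not a chromosome. Between strands of the same cluster it was 0.189 for miR-23a-3p and miR-27a-3p and 0.121 for miR-23b-3p and miR-27b-3p. miR-24-3p, of both clusters and without a seed partner, lay at 0.092 from miR-27b-3p, 0.114 from miR-23b-3p, 0.117 from miR-27a-3p and 0.146 from miR-23a-3p. Pairs that shared neither seed nor cluster lay at 0.194 (miR-23a-3p and miR-27b-3p) and 0.135 (miR-23b-3p and miR-27a-3p). Among the miR-23 and miR-27 members, both pairs with a shared seed were thus closer than every other pair. Each such pair differs by 1 base, and the division of reads within it is uncertain. For each of these members, the 3 entries named above, of other seeds, lay closer to it than its seed partner did. The distances did not sort by cluster.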

How the data were processed

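Small RNA was extracted from skin tissue with a mirVana kit and sequenced on an Illumina platform, per the labels' protocols. GRCm38 and mm10, names of the same mouse build, come from the submitters' processing notes. What aligner or counter was used is not given in the sources used here. Deposited read counts are whole numbers, 1 row per mature strand. Deposited TPM values served for the check of diabetic ulcer column 3 and in alternatives. A deposited table of results holds, per the file headers, base means from an unpaired DESeq2 run, the fold and log2 fold, and each p-value with its q-value. Of columns with values per sample, 0 stayed unmapped.

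The main test was edgeR 4.0.16's quasi-likelihood F test (R 4.3.3) on the counts of 4 libraries, with TMM scaling, filterByExpr at its defaults, group as the only term and Benjamini-Hochberg adjustment over 443 entries (threshold 0.05). An SE is the difference over the square root of F. Member ratios were tested by exact permutation over libraries. TMM factors were 1.3305, 0.6244, 1.189 and 1.0123 for normal ulcer 1 and 2 and diabetic ulcer 1 and 2. Shares have 95% Wilson intervals. The code was tested on simulated data.

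The members and lists were chosen with earlier results of these data known. Named entries are the members, strands of their hairpins and of the opposite hairpins, entries sharing a seed, the 3 entries most like each member, and the 2 most abundant of each list. The other muscle list entries, and miR-142a-5p and miR-342-3p of the leukocyte list, were named after their values were seen. Alternatives were other scalings and filters, DESeq2 1.42.0, limma 3.58.1 (voom, and log2 TPM with pseudocounts of 1 and 0.1 for entries with a mean TPM of at least 1), all 6 columns, a replicate term and leaving out single libraries. Read numbers also depend on how well adapters join each strand, so levels between miRNAs are shares of reads.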

Additional observations from a re-analysis of the deposited data

How the results depend on the processing

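No member was called in any of the 17 alternatives. Over all entries, edgeR called 1 with library totals (miR-499-5p) and 6 without normal ulcer 1 (miR-196a-5p, miR-196b-5p, miR-1b-5p, miR-208b-3p, miR-378c and miR-499-5p, named after their values were seen), so the count ranged from 0 to 6 over fits without single libraries; there the group left with 1 library is assumed to vary like the other. Other alternatives called 0 (DESeq2 with 3 at an unadjusted p under 0.05, limma-voom with 4). Over all 6 columns, which count dependent columns as samples, miR-23a-3p and miR-23b-3p turned negative (-0.055 and -0.178). With a replicate block over 6 columns they were -0.094 and -0.249, and over 4 libraries the block turned no member (miR-27b-3p -0.175) and called 0 entries, with 20 at an unadjusted p under 0.05 against 4 without it. Replicate numbers are not said to pair samples. Deviations of same-numbered libraries correlated at 0.444 over the 4 libraries. Over 6 columns, where those numbered 3 are not independent, they correlated at 0.4, 0.331 and 0.032, and 4 of 6 columns correlated best with their own number. On deposited TPM, miR-27a-3p was 0.017 with either pseudocount.

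Leaving out single libraries moved the log2 difference of miR-23a-3p from -0.079 to 0.33, of miR-23b-3p from -0.197 to 0.315, of miR-24-3p from -0.326 to 0.041, of miR-27a-3p from -0.224 to 0.173 and of miR-27b-3p from -0.403 to 0.096. Log2 ratio differences that turned ranged from -0.165 to 0.039 (23b-3p over 23a-3p), -0.209 to 0.022 (27b-3p over 27a-3p), -0.399 to 0.055 (27a-3p over 23a-3p), -0.237 to 0.05 (24-3p over 27a-3p), -0.112 to 0.112 (24-3p over 27b-3p), -0.607 to 0.24 (23a-3p over 23a-5p) and -0.216 to 0.352 (24-3p over 24-1-5p). Over 6 columns, 24-3p over 27b-3p was 0.118 and 24-3p over 24-1-5p -0.175. The other ratios kept their direction, with ranges of -0.296 to -0.109 (27b-3p over 23b-3p), -0.35 to -0.182 (24-3p over 23a-3p), -0.275 to -0.13 (24-3p over 23b-3p), -0.698 to -0.328 (23b-3p over 23b-5p), -0.47 to -0.067 (24-3p over 24-2-5p), -0.418 to -0.106 (27a-3p over 27a-5p) and -0.358 to -0.228 (27b-3p over 27b-5p). The causes were not tested. With 2 libraries per group that do not follow from other columns, differences of the size of the SEs given for the members are not detectable.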
